A study of Danio rerio with 24 samples.

Results

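Caudal fins of control zebrafish collected 24 h after amputation were compared with caudal fins of control zebrafish at 0 h. The comparison held 6 of the 24 Affymetrix zebrafish arrays of the study, 3 at each time, chosen by the group and time in their titles. The study followed regeneration at 0, 12, 24 and 48 h after the cut in control fish and in fish of a metabolic memory group, with 3 arrays in each of 8 groups. Control fish were wild-type and, per the treatment protocol, had been injected with citrate buffer alone, although the design text calls them untreated. Memory fish, used below only for comparison, were wild-type fish injected with streptozocin, a toxin of insulin-producing cells, at 350 mg/kg and then kept for 60 days without the drug. The interval of 60 days is listed for control fish as well. All fish lived at 28.5 °C with 14 h of light and 10 h of dark. The labels give triplicate samples from 15 caudal fins at each time. They do not say whether 15 fins made up each sample, whether the triplicates came from different fish, which stretch of the fin was taken, or the age of the fish and the time of day. The p-values below therefore measure the spread between these arrays, which may be technical.

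When a zebrafish caudal fin is cut, epidermal cells slide over the stump and form a wound epidermis. Beneath it, osteoblasts of the bony rays and fibroblasts of the tissue between them lose part of their mature character, divide and gather as a blastema, the mass of cells that rebuilds the fin. Fgf, Wnt, activin, retinoic acid and insulin-like growth factor signals are known to be needed for this growth, and macrophages and bone-resorbing cells clear the damaged tissue.

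Each value is the log2 level of a probe set, the group of oligonucleotides that reports 1 transcript, so a difference of 1 is a 2-fold change. A probe set was tested when it reached log2 of 4 on 3 or more of the 24 arrays, which 10140 of 15502 did. They covered 6451 genes with 1 symbol, each represented below by its probe set of the highest mean. Levels of different probe sets are not compared with each other. No call of presence or absence was used, and a level under 4 may be background, so a difference that starts or ends there has an uncertain size. Differences are 24 h minus 0 h with their standard error, from limma fitted to all 24 arrays. After the level of a gene at 1 time, ± gives the SD of the 3 arrays instead. A gene is said to have risen or fallen when its Benjamini-Hochberg adjusted p over all tested probe sets was under 0.05; the largest such p among the genes named was 0.0472. Among the 6451 genes, 2756 rose (42.7%) and 1808 fell (28%), and these shares are the background for the counts below. The median difference over the 6451 genes was 0.15. In 4826 genes (74.8%) the 3 arrays at 24 h lay all above or all below the 3 at 0 h.

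The arrays within each time correlated at 0.99 to 0.994 and those of different times at 0.864 to 0.87. Spiked hybridisation controls, added in equal amounts by the standard protocol, averaged 9.67 at 0 h and 9.38 at 24 h. Shifting the arrays to equal levels of these controls moved the median of all tested probe sets from 0.03 to 0.32. The share of higher calls went from 53.8% to 69.6%, so small differences are read below only against other genes. Of the 286 genes named, 10 that passed no test gained a call with that scaling and 5 lost theirs. All 6 epidermal markers on the array were well expressed at both times, with mean log2 of 12.8 to 13 at 0 h and 13.2 to 13.3 at 24 h. None of the 5 skeletal muscle markers on the array passed the filter. The 6 osteoblast and fin ray markers averaged 7.56 to 7.64 at 0 h and 5 to 5.1 at 24 h, and the 4 neutrophil and macrophage markers 6.34 to 6.6 and 5.52 to 5.56. These 4 did not move together. The mean of lyz fell from 6.75 to 2.68 and that of lcp1 from 8.23 to 7.89. That of marco rose from 7.05 to 8.38, and mpx passed no test. In RNA of a whole tissue, fewer cells of a type and less RNA per cell cannot be told apart.

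Among genes with a name, clone identifiers left out, whose 24 h and 0 h arrays did not overlap, the 25 largest rises ran from 3.73 to 8.31 on the log2 scale, and 13 of the 25 started from a mean under 4. The tryptophan hydroxylase gene tph1b, whose enzyme makes a serotonin precursor, measured 4.32, 4.20 and 4.05 at 0 h and 11.70, 11.72 and 11.63 at 24 h. f5, which encodes coagulation factor V, measured 2.54, 2.42 and 2.86 at 0 h and 9.10, 9.50 and 9.50 at 24 h, and syt4, a synaptotagmin of vesicle release, 2.16, 2.20 and 2.40 at 0 h and 8.54, 8.82 and 8.57 at 24 h. The arrays within a time differed little in all 3 genes. That the 2 times did not overlap was a condition of the choice. The lactate and pyruvate carrier slc16a3b rose by 5.04 ± 0.30, and the collagen chaperone serpinh1b, known as Hsp47, rose by 4.96 ± 0.37 from a level of 7.45 ± 0.41. The retinoic acid-making enzyme aldh1a2 measured 5.0, 4.97 and 5.05 at 0 h and 8.93, 9.29 and 9.22 at 24 h, a 17.7-fold rise (adjusted p = 1.40e-15). jac4 (8.31 ± 0.36) and ntrnl2 (7.95 ± 0.36) had the largest rises of all named genes. The talin gene tln2a, the transcription factor cremb and the SUMO-activating enzyme sae1 were also among the 25.

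Among the same genes with a name, the 25 largest falls ran from -4.73 to -7.16, and 13 of the 25 ended at a mean under 4. The prostaglandin D synthase genes ptgdsb.1 and ptgdsb.2 were both among these 25, and ptgdsb.1 measured 14.44, 14.44 and 14.38 at 0 h and 7.13, 7.94 and 8.28 at 24 h. The complement protease cfd, known as factor D, measured 11.97, 11.66 and 11.67 at 0 h and 5.04, 4.82 and 6.22 at 24 h. The retinol carrier rbp4 measured 13.20, 13.12 and 13.22 at 0 h and 7.40, 7.34 and 8.24 at 24 h. In these genes the levels at 24 h stayed above 4, and times without overlap were again a condition of the choice. The homogentisate dioxygenase hgd of tyrosine breakdown fell by 6.57 ± 0.25, the betaine-homocysteine methyltransferase bhmt fell by 6.17 ± 0.40, and the sterol hydroxylases cyp8b1.1 and cyp8b1.3 fell by 6.41 ± 0.47 and 6.36 ± 0.65. cyp1a, the P450 induced through the aryl hydrocarbon receptor, fell by 7.01 to a level of 2.09 ± 0.09. Secreted signals in this group were the Bmp family member bmp3 (-5.07 ± 0.21), the growth inhibitor mstnb (-6.07 ± 0.10) and wnt11 (-4.98 ± 0.18). The Wnt antagonist frzb (-4.74 ± 0.17) and the chemokines ccl25b (-5.22 ± 0.26) and ccl44 (-4.78 ± 0.09) were secreted signals of this group too. The largest fall of any probe set was of zgc:136930, a clone identifier chosen after its values were seen, which measured 13.04, 13.0 and 13.02 at 0 h and 3.29, 3.13 and 3.09 at 24 h. It is counted in the bone list below.

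**Figure D1:**
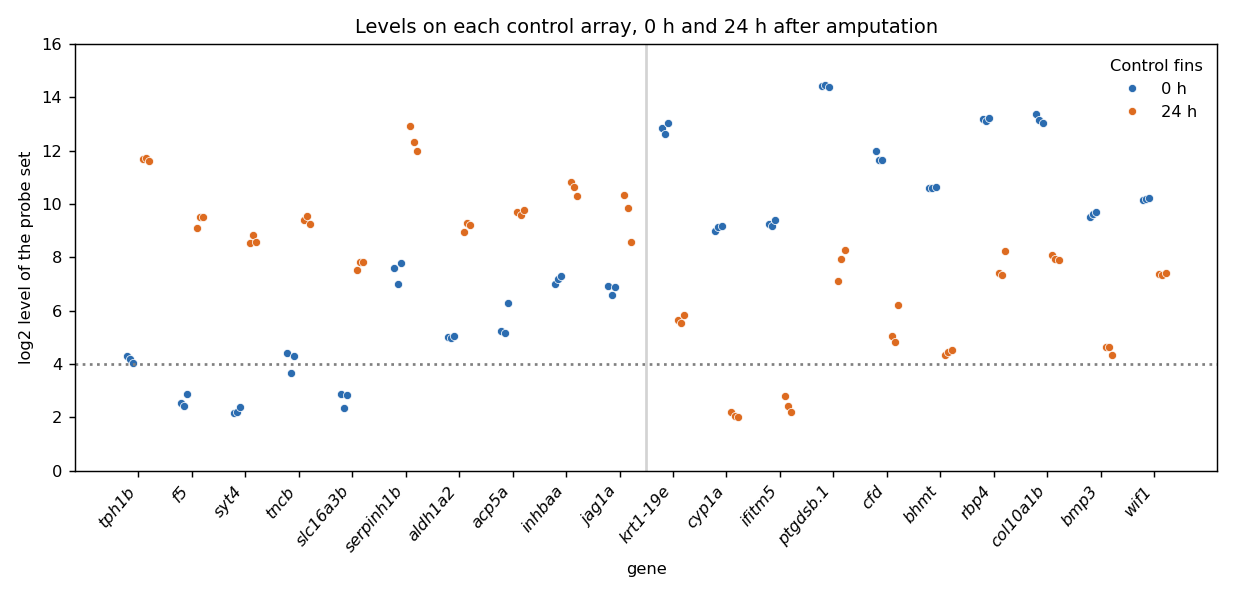
Log2 level on each of the 6 control arrays for 10 genes with large rises and 10 with large falls, with 1 point per array; blue points are the 3 arrays at 0 h and orange points the 3 at 24 h. The dotted line at log2 of 4 marks the level used by the filter. In all 20 genes the points of the 2 times lie apart, as they do in 74.8% of all 6451 genes.

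Cell growth machinery rose as a broad block. Of 91 tested genes of ribosome assembly and RNA polymerase I, 82 rose and 4 fell, with a median difference of 1.53 against 0.15 over all genes. The pseudouridine synthase dkc1, which modifies ribosomal RNA, measured 5.36, 5.48 and 5.58 at 0 h and 8.21, 8.48 and 8.36 at 24 h. The nucleolar protein nucleophosmin, npm1a, measured 8.91, 9.08 and 9.01 at 0 h and 11.83, 11.62 and 11.80 at 24 h, a 6.75-fold rise, while its paralogue npm1b differed by 0.19 ± 0.14 and passed no test. The pre-ribosome factors noc4l (3.04 ± 0.10), mrto4 (2.84 ± 0.13) and nol6 (2.68 ± 0.13) rose as well. The proteins of the finished ribosome gave another count. Of 70 cytosolic ribosomal protein genes, 1 rose, 4 fell and 65 passed no test, with a median of -0.02; on arrays set to equal hybridisation controls 11 rose and 1 fell, with a median of 0.26. The gene that rose was rps27l (1.08 ± 0.14), a ribosomal protein paralogue known as a p53 target in mammals. rps20 (14.71 ± 0.07 at 0 h and 14.78 ± 0.05 at 24 h) and rps4x (14.60 ± 0.07 at 0 h and 14.66 ± 0.05 at 24 h) lie near the top of the scale, where arrays can lose differences.

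Of 77 genes of translation factors and tRNA synthetases 48 rose and 13 fell, with a median of 0.81. With equal hybridisation controls 52 rose and 3 fell. Within the list, enzymes that charge tRNAs rose, and most genes of eIF3 and of elongation factors 1 and 2 did not. All 17 tested cytosolic tRNA synthetases rose, from 0.56 to 4.13, with a median of 1.78. The tryptophan enzyme wars1 measured 3.87, 3.52 and 3.36 at 0 h and 7.62, 7.86 and 7.66 at 24 h, the arginine enzyme rars1 rose by 2.07 ± 0.10 and the threonine enzyme tars1 rose by 2.03 ± 0.11. All 5 subunits of eIF2B, the exchange factor that recharges initiation factor 2, also rose, eif2b3 the most (2.52 ± 0.10). Of 13 eIF3 subunits 3 rose and 5 fell, with a median of -0.17. Of 6 genes of elongation factors 1 and 2, counting the kinase that acts on factor 2, none rose. With equal hybridisation controls 4 eIF3 subunits rose and none fell, and 1 elongation factor gene rose. The cap-binding factor eif4e1c rose by 2.16 ± 0.13, while eif4ebp3l, of the family of inhibitors that hold back cap binding, measured 9.20, 9.34 and 9.38 at 0 h and 6.35, 6.53 and 5.99 at 24 h. These families within the lists were singled out after their values were seen.

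Chaperones of several compartments rose together: 58 of 80 rose and 4 fell, with a median of 0.91. In mitochondria the chaperonin pair hspd1 and hspe1, known as Hsp60 and Hsp10, rose by 3.76 ± 0.09 and 3.14 ± 0.10; hspd1 is needed for fin regeneration in zebrafish. In the endoplasmic reticulum, hyou1 (2.58 ± 0.11), hsp90b1 (2.50 ± 0.11), dnajb11 (2.81 ± 0.20) and manf (2.70 ± 0.12) rose. In the cytosol, hspa4a measured 5.27, 5.47 and 5.67 at 0 h and 9.31, 9.38 and 9.34 at 24 h and the heat-inducible hsp90aa1.2 5.32, 5.43 and 5.95 at 0 h and 10.0, 9.79 and 9.42 at 24 h, and all 8 subunits of the TRiC chaperonin rose by 0.45 to 1.38. The constitutive hsp90ab1 (0.16 ± 0.09) and the endoplasmic reticulum stress factor xbp1 (0.12 ± 0.08) passed no test.

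Proteasome genes divided by type. Of the 41 genes of the standard proteasome and its assembly, 38 rose and 2 fell, with a median of 0.92. The catalytic subunit gene psmb7 measured 8.70, 8.39 and 8.66 at 0 h and 10.87, 10.80 and 10.90 at 24 h, a 4.84-fold rise, and the activator psme3 rose by 1.84 ± 0.11. Of the 7 tested genes of the immunoproteasome, the form that makes peptides for antigen presentation, and of its activator none rose and 4 fell. psme1 measured 10.52 ± 0.10 at 0 h and 10.51 ± 0.03 at 24 h, and psmb9a and psmb12 differed by -0.07 ± 0.14 and -0.0 ± 0.11. On arrays set to equal hybridisation controls none of the 7 rose and 1 fell.

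Most tested genes of the mitochondrial ribosome, of protein import and of the respiratory chain rose. 78 of 83 genes of the mitochondrial ribosome and of protein import rose and none fell, with a median of 1.35. The ribosomal protein mrps23 measured 4.67, 4.42 and 4.46 at 0 h and 7.36, 7.30 and 7.52 at 24 h, the import pore gene tomm40l rose by 3.37 ± 0.15, the inner membrane import motor gene timm44 rose by 2.38 ± 0.17 and the mitochondrial elongation factor gfm1 rose by 2.79 ± 0.13. Of 88 respiratory chain genes 81 rose and 2 fell, with a lower median of 0.77. The cytochrome c gene cycsb rose by 1.90 ± 0.10 and the complex I assembly factor ndufaf4 rose by 2.0 ± 0.12. The larger of the 2 falls was of cox4i2, the isoform of a cytochrome oxidase subunit that is induced by low oxygen in mammals, which measured 7.92, 8.10 and 8.27 at 0 h and 4.39, 4.62 and 4.95 at 24 h. The other was of cox17, named after its values were seen, at -0.68 ± 0.11.

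Genes of glycolysis and of the response to low oxygen moved in both directions. Of 39 genes of glycolysis and the hypoxia response 24 rose and 10 fell. Lactate dehydrogenase A, ldha, measured 6.58, 6.18 and 6.34 at 0 h and 8.79, 8.89 and 9.03 at 24 h, the phosphofructokinase pfkpa rose by 2.02 ± 0.16 and the phosphoglycerate mutase pgam1a rose by 2.19 ± 0.11. eno3, the muscle-type enolase, fell by 0.81 ± 0.12. Genes known as hypoxia targets in other settings moved both ways: igfbp1a rose by 2.82 ± 0.28 and the collagen prolyl hydroxylase p4ha1b rose by 2.33 ± 0.22, whereas bnip3 fell by 2.63 ± 0.14, ddit4 fell by 2.69 ± 0.25 and the hypoxia-inducible factor gene epas1a fell by 3.55 ± 0.13. Of 43 enzymes of amino acid breakdown and one-carbon metabolism 19 rose and 13 fell, or 20 and 8 with equal hybridisation controls. The makers asns (1.92 ± 0.15) and cth (2.39 ± 0.21), of asparagine and cysteine, rose. The breakdown enzymes gldc (-4.71 ± 0.21), of glycine, and tat (-2.40 ± 0.24), of tyrosine, fell. Glutamate-cysteine ligase, which makes glutathione, is shown by its modifier gclm (1.94 ± 0.14) and its catalytic subunit gclc, which passed no test (-0.06 ± 0.11).

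**Figure D2:**
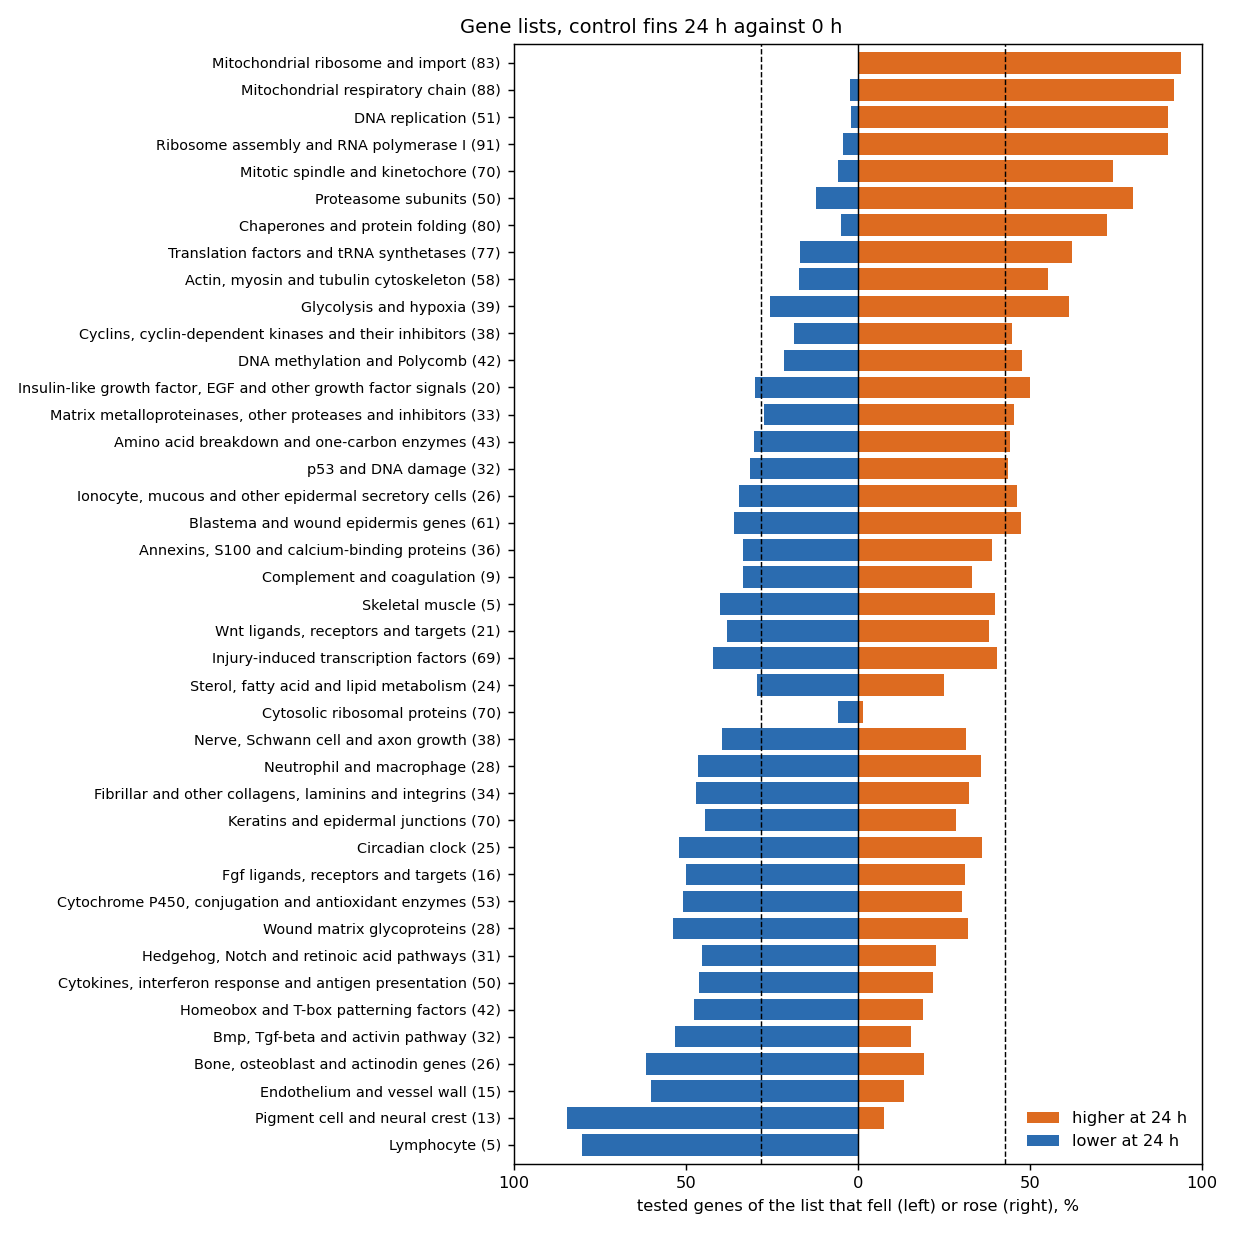
Share of the tested genes of each list that rose (orange, to the right) or fell (blue, to the left) at 24 h against 0 h in control fins, in percent, with the number of tested genes beside each name. The dashed lines mark the shares over all 6451 genes, 42.7% higher and 28% lower; growth machinery and cell division lists lie at the top, and bone, pigment and lymphocyte lists at the bottom.

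The DNA replication machinery had risen at 24 h. Of 51 tested genes 46 rose, 1 fell and 4 passed no test, with a median of 1.19. Loading of the replicative helicase starts at the origin recognition complex, and all 6 tested subunits rose, orc3 from 4.62, 4.35 and 3.80 at 0 h to 7.13, 7.17 and 7.11 at 24 h. Of the helicase itself mcm5 measured 5.62, 5.20 and 5.31 at 0 h and 8.0, 8.10 and 7.86 at 24 h and mcm4 5.13, 4.71 and 4.60 at 0 h and 7.23, 7.23 and 7.12 at 24 h. All 9 polymerase and primase genes rose, pola2 the most (2.17 ± 0.19), as did the clamp pcna, from 10.56, 10.19 and 10.56 at 0 h to 11.65, 11.89 and 11.76 at 24 h, and the flap endonuclease fen1 (2.16 ± 0.10). Of the genes of nucleotide supply, ctps1a (3.04 ± 0.13), tyms (1.88 ± 0.13) and dut (2.04 ± 0.13) rose, whose enzymes make CTP and dTMP and remove dUTP. rrm1, the large subunit of ribonucleotide reductase, passed no test (0.11 ± 0.11), and tk1, the salvage thymidine kinase, fell by 0.46 ± 0.18, a call lost with equal hybridisation controls and without any of 4 of the 6 arrays. The factors that hold DNA methylation through replication rose too: uhrf1 measured 4.63, 4.76 and 4.79 at 0 h and 7.58, 7.26 and 7.33 at 24 h and dnmt1 rose by 1.16 ± 0.20.

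Mitotic genes rose less against 0 h than replication genes did in their median, and differed more from the 12 h fin. Of 70 spindle and kinetochore genes 52 rose and 4 fell against 0 h, with a median of 0.71. Directly against 12 h, a comparison that shares the 24 h arrays with the one above, 751 of the 6451 genes were higher (11.6%) and 626 lower (9.7%), and 45 of the 70 mitotic genes were higher with a median of 0.79. That split depended on scaling: of the probe sets called, 55.9% were higher than at 12 h, against 95.8% with equal hybridisation controls, which moved the median of all tested probe sets by 0.35. In the same comparison 9 of the 51 replication genes were higher, with a median of 0.06. The anaphase activator cdc20 measured 5.15, 4.62 and 4.70 at 0 h, 4.33, 4.25 and 4.09 at 12 h, and 6.46, 6.62 and 6.47 at 24 h. The mitotic cyclin ccnb1 measured 6.50, 5.94 and 6.39 at 0 h, 6.35, 5.89 and 6.28 at 12 h, and 8.01, 8.14 and 7.89 at 24 h. The 12 h arrays lay below the 0 h arrays for cdc20 and overlapped them for ccnb1, and in both genes all 24 h arrays lay above both earlier times. The mitotic kinase cdk1 rose by 0.63 ± 0.17 against 0 h and was 1.74 ± 0.17 higher than at 12 h; cdca8, of the chromosomal passenger complex, was 1.69 ± 0.20 higher. The G1 cyclin ccnd1 (-0.08 ± 0.19) and the S phase cyclin ccne1 (0.21 ± 0.15) passed no test against 0 h. skp2, which targets the inhibitor p27 for degradation, measured 3.93, 3.45 and 3.72 at 0 h and 6.90, 6.15 and 6.63 at 24 h, and cdkn1bb, of the p27 family, fell by 0.72 ± 0.13, a call lost with equal hybridisation controls.

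Signals of the blastema and wound epidermis moved gene by gene, and a list of 61 such genes had 29 that rose and 22 that fell. Among Fgf genes, the ligand fgf10a measured 5.01, 5.31 and 4.95 at 0 h and 7.16, 6.93 and 7.45 at 24 h and the pathway targets etv4 (1.92 ± 0.11) and etv5b (1.70 ± 0.17) rose. The receptors fgfr2 (-1.70 ± 0.17), fgfr3 (-2.45 ± 0.27) and fgfr4 (-4.08 ± 0.29) fell, and fgfr4 measured 8.40, 8.57 and 8.77 at 0 h and 4.79, 4.75 and 3.97 at 24 h. The feedback inhibitors differed: spry4 rose by 0.64 ± 0.27, a call lost without 24 h replicate 1 or 2 or 0 h replicate 1, and dusp6 fell by 0.48 ± 0.13, a call lost with equal hybridisation controls. fgf24, a ligand of the regenerating epidermis, measured 4.18 ± 0.50 at 0 h and 2.69 ± 0.05 at 24 h, a fall that ends at a level that may be background. fgf20a was not among the tested genes.

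Among Wnt genes, the target lef1 (1.05 ± 0.19), the epidermal factor sp8b (2.18 ± 0.38), the non-canonical ligand wnt5b (1.16 ± 0.21) and both beta-catenin genes, ctnnb1 (0.54 ± 0.11) and ctnnb2 (1.23 ± 0.14), rose. The feedback target axin2 rose by 0.54 ± 0.20, a call lost without control 24 h replicate 3 or 0 h replicate 2. Several secreted inhibitors fell: wif1 measured 10.15, 10.17 and 10.24 at 0 h and 7.36, 7.35 and 7.41 at 24 h, sfrp1a fell by 2.32 ± 0.22, dkk2 fell by 2.19 ± 0.19 and notum1b fell by 3.70 ± 0.30. dkk3b, of the same Dickkopf family, rose by 1.58 ± 0.11. The receptor genes fzd2 and fzd7a went opposite ways, at 0.73 ± 0.13 and -2.73 ± 0.17.

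In the Bmp, Tgf-beta and activin list 5 of 32 genes rose and 17 fell, or 8 and 13 with equal hybridisation controls, with a median of -0.40. The activin gene inhbaa, needed in zebrafish for early fin regeneration, measured 7.0, 7.19 and 7.28 at 0 h and 10.83, 10.63 and 10.31 at 24 h, a 10.8-fold rise (adjusted p = 2.06e-13), while inhbb fell by 1.70 ± 0.20. The Gdf ligand gdf6a rose by 0.87 ± 0.26. Among Bmp ligands bmp4 measured 6.89, 7.26 and 7.11 at 0 h and 4.68, 4.22 and 4.65 at 24 h, bmp5 fell by 1.21 ± 0.24, and bmp2a (-0.30 ± 0.21) and bmp2b (-0.20 ± 0.12) passed no test. The Bmp antagonist nog3 fell by 2.33 ± 0.18. The Bmp-responsive Id genes differed: id1 rose by 0.87 ± 0.23, while id3 fell by 1.83 ± 0.27 and id4 fell by 3.67 ± 0.30. tgfbr2b, a Tgf-beta receptor, fell by 2.21 ± 0.15.

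Among retinoic acid genes the enzymes of synthesis rose. Beside aldh1a2, the retinol dehydrogenase rdh10b rose by 0.99 ± 0.16 and the binding protein crabp2b rose by 1.87 ± 0.11. Of the enzymes that break retinoic acid down, cyp26b1 measured 11.11, 11.33 and 11.22 at 0 h and 9.89, 9.73 and 9.68 at 24 h and cyp26a1, at 11.06 ± 0.30 at 0 h and 10.77 ± 0.49 at 24 h, passed no test. The hedgehog ligand shha measured 2.99 ± 0.28 at 0 h and 2.80 ± 0.08 at 24 h, near the low end of the scale, and passed no test, whereas the effector genes gli2a (2.13 ± 0.17) and smo (1.22 ± 0.15) rose. Among Notch genes the ligand jag1a measured 6.92, 6.60 and 6.89 at 0 h and 10.35, 9.84 and 8.59 at 24 h, whereas jag1b (-1.40 ± 0.28), jag2b (-1.45 ± 0.13) and the receptors notch2 (-0.92 ± 0.11) and notch3 (-1.25 ± 0.20) fell. In the list of other growth factor signals 10 of 20 rose and 6 fell. Among those that rose were the EGF receptor ligands hbegfa (2.27 ± 0.21) and hbegfb (3.74 ± 0.18), the hepatocyte growth factor receptor met (2.76 ± 0.20) and igf2b (1.63 ± 0.13). Midkine genes went opposite ways, mdka from 10.13, 10.25 and 10.04 at 0 h to 12.22, 12.04 and 12.19 at 24 h and mdkb from 4.97, 6.10 and 6.28 at 0 h to 3.02, 2.70 and 3.35 at 24 h.

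**Figure D3:**
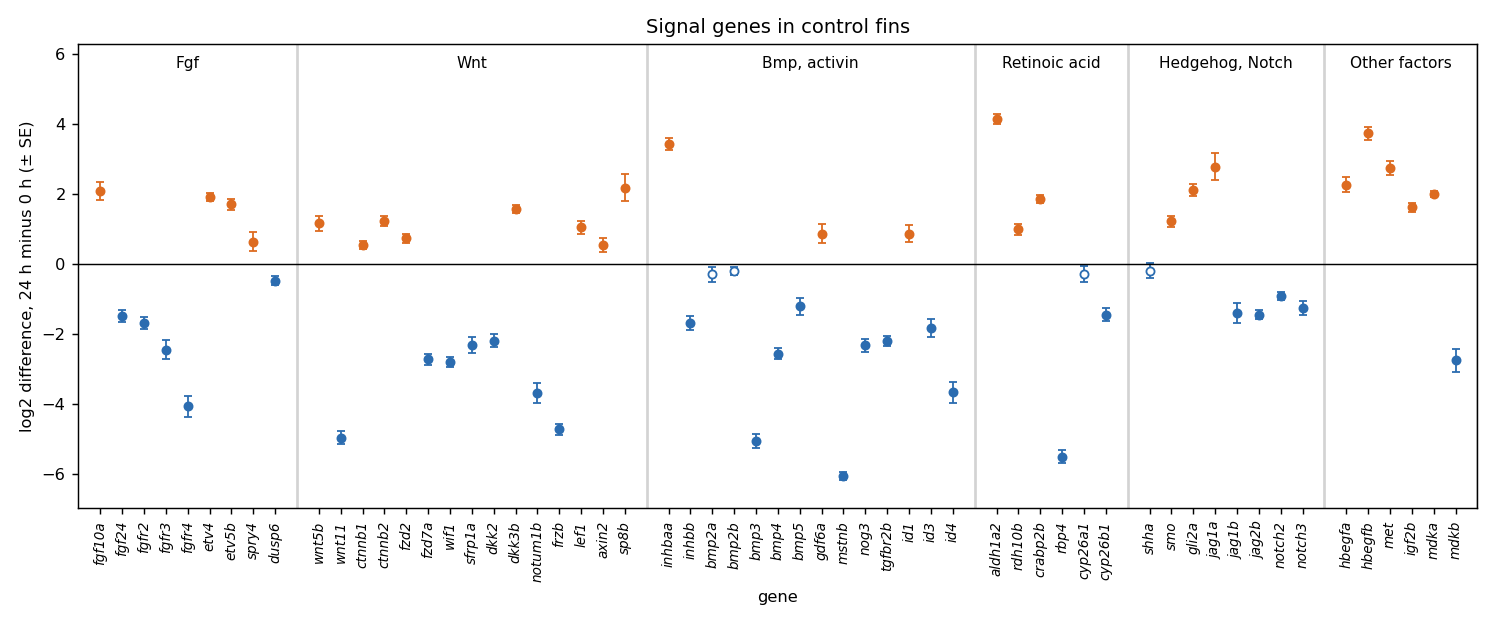
Difference between 24 h and 0 h in control fins, as log2 with the standard error of the fit as the bar, for signal and pathway genes grouped by pathway; filled points passed the test and open points did not. Ligand, receptor and inhibitor genes of the same pathway lie on both sides of 0.

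Transcription factors of the blastema and of limb patterning differed among families. msx1b (1.09 ± 0.18) and msx2b (1.06 ± 0.30), homeobox genes of the blastema, prrx1b (1.05 ± 0.19) and twist1a rose, and twist1a measured 4.57, 4.10 and 3.59 at 0 h and 7.24, 7.35 and 6.88 at 24 h. Against 12 h, msx1b was higher by 1.0 ± 0.18 and msx2b by 1.15 ± 0.30, the latter a call lost without 12 h replicate 2. Of 8 Dlx genes none rose and 6 fell against 0 h, or 4 with equal hybridisation controls; dlx5a, a factor of osteoblasts and fin ray epidermis, measured 8.54, 8.59 and 8.60 at 0 h, 8.02, 5.97 and 5.64 at 12 h, and 7.99, 8.41 and 9.22 at 24 h, so the 24 h arrays overlapped those at 0 h and the highest of those at 12 h. Of 12 Hox genes none rose, 5 fell and 7 passed no test, and 2 fell with equal hybridisation controls. Among the 5 that fell were hoxa13b (-0.48 ± 0.21) and hoxc13a (-1.03 ± 0.29), the call of hoxa13b being lost without any of 4 of the 6 arrays. meis1b (-1.89 ± 0.29), irx3a (-1.53 ± 0.34) and pbx1a (-1.47 ± 0.21), known from the proximal limb in other vertebrates, fell. evx1, a gene of fin ray joints in zebrafish, fell by 1.64 ± 0.18.

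Transcription factors known from injury responses divided within their families. Of the list of 69 genes 28 rose and 29 fell, or 33 and 23 with equal hybridisation controls. Among AP-1 genes junba measured 9.74, 10.40 and 10.05 at 0 h and 12.43, 12.40 and 12.61 at 24 h, fosl1b rose by 3.87 ± 0.15 and fosl2 rose by 1.41 ± 0.23, while jun measured 12.02, 12.12 and 11.98 at 0 h and 9.51, 9.50 and 9.36 at 24 h and fosab passed no test (-0.16 ± 0.55). sox11a measured 4.67, 4.77 and 5.52 at 0 h and 9.50, 9.02 and 9.49 at 24 h and sox9b 6.80, 5.79 and 5.93 at 0 h and 9.89, 9.49 and 9.17 at 24 h, while sox11b (-1.22 ± 0.28), sox3 (-2.40 ± 0.20) and sox10 (-2.02 ± 0.14) fell. Of 11 Klf genes 2 rose and 8 fell, or 3 and 6 with equal hybridisation controls, klf3 from 10.88, 11.33 and 11.24 at 0 h to 6.67, 8.17 and 8.13 at 24 h. The growth arrest genes gadd45bb (3.07 ± 0.24) and gadd45ba (-1.79 ± 0.19) moved oppositely. Of the Myc genes, myca (2.20 ± 0.21), mycn (1.80 ± 0.26), mycb (1.11 ± 0.27) and mycla (0.73 ± 0.20) rose, and myclb (-2.46 ± 0.17) fell. Against the 12 h fin 2 of the 69 genes were higher and 17 lower. Lower calls in that comparison depended on scaling: 901 of all tested probe sets were lower, or 151 with equal hybridisation controls. The stress factor atf3 measured 3.84, 4.33 and 4.73 at 0 h, 9.67, 9.87 and 7.45 at 12 h, and 7.03, 6.17 and 5.75 at 24 h; jdp2b differed from 12 h by -2.49 ± 0.74 and nr4a1 by -1.99 ± 0.56, calls lost without any of 4 and any of 2 of the 6 arrays compared. For these 3 genes the mean at 24 h lay between that of 0 h and that of 12 h.

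Of 28 wound matrix glycoprotein genes 9 rose and 15 fell. Tenascin C, tncb, and fibronectin are matrix glycoproteins of the wound and blastema: fn1b measured 11.57, 11.32 and 10.83 at 0 h and 13.96, 13.90 and 13.73 at 24 h, fn1a rose by 1.93 ± 0.09, and the fibronectin receptor chain itga5 rose by 1.96 ± 0.19. The related tenascin tnn measured 9.84, 9.39 and 8.85 at 0 h and 4.63, 4.70 and 5.03 at 24 h. Of the proteins of mature connective tissue, the small proteoglycans dcn (-1.41 ± 0.13) and bgnb (-2.65 ± 0.16), the lubricant prg4a (-4.60 ± 0.25) and the matrilin matn4 (-3.03 ± 0.15) fell. Periostin, postnb, was high at both times (13.36 ± 0.11 at 0 h and 13.38 ± 0.12 at 24 h) and passed no test. Another probe set of postnb fell slightly (-0.23). The hyaluronan-binding tnfaip6 (3.35 ± 0.16) and the hyaluronan receptor cd44a (1.19 ± 0.13) rose. Of 15 collagen chains 2 rose and 11 fell: col12a1b rose by 1.30 ± 0.09 and col15a1a rose by 1.90 ± 0.19, while col1a1a fell by 0.91 ± 0.11 and col6a3 fell by 2.13 ± 0.14. frem3, of a family of basement membrane proteins, stood at 3.13, 2.86 and 3.33 at 0 h, 3.41, 2.96 and 3.53 at 12 h, and 6.57, 6.30 and 6.74 at 24 h, so its rise lay between 12 and 24 h. Among the proteases, the collagenase mmp13a measured 6.50, 6.42 and 7.24 at 0 h and 8.60, 10.07 and 9.03 at 24 h and mmp9 and mmp14b rose by 0.77 ± 0.13 and 0.69 ± 0.10. The gelatinase mmp2 measured 11.66, 11.68 and 11.86 at 0 h and 9.61, 9.63 and 9.70 at 24 h and the urokinase gene plaua fell by 3.37 ± 0.16. The metalloproteinase inhibitors timp2b (1.84 ± 0.22) and timp2a (-0.77 ± 0.10) moved in opposite directions. The collagen cross-linking enzymes also differed, with loxl2b at 1.31 ± 0.11 and loxa at -4.09 ± 0.31.

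Most genes of bone formation fell, and 3 genes of bone resorption rose. Of 26 bone and actinodin genes 5 rose and 16 fell, with a median of -0.97. Without zgc:136930, a count added after seeing the data, 5 of 25 rose and 15 fell, with a median of -0.91. The osteoblast membrane protein ifitm5 measured 9.27, 9.19 and 9.39 at 0 h and 2.79, 2.41 and 2.18 at 24 h. The collagen X genes col10a1a and col10a1b measured means of 12.89 ± 0.03 at 0 h and 8.44 ± 0.16 at 24 h and of 13.18 ± 0.16 at 0 h and 7.97 ± 0.09 at 24 h. No array at 24 h reached the range at 0 h in these 3 genes. The osteoblast factor runx2a fell by 1.89 ± 0.20 and the mineralisation enzyme alpl fell by 1.42 ± 0.18, while runx2b, at 4.02 ± 0.04 at 0 h and 3.89 ± 0.07 at 24 h, passed no test. The osteoclast phosphatase gene acp5a measured 5.25, 5.16 and 6.29 at 0 h and 9.71, 9.59 and 9.76 at 24 h. tcirg1b, of the osteoclast proton pump, rose by 1.25 ± 0.16, and ctsk, which encodes cathepsin K, rose by 0.36 ± 0.08. A rise was not particular to ctsk: of 11 cathepsin genes 8 rose and 2 fell, with a median of 0.415. Of 11 genes of the V-ATPase proton pump 9 rose and none fell, with a median of 0.39. The gap junction gene gja1b, which sets fin ray segment length in zebrafish, rose by 1.08 ± 0.14.

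The actinodins, which form the unmineralised fibrils at the fin tip, lay above the 12 h fin at 24 h, and1 by more than and2. Both lay near or under 4 at 12 h, where a level may be background. and1 measured 10.13, 10.06 and 10.15 at 0 h, 3.70, 3.52 and 4.02 at 12 h, and 9.08, 9.15 and 9.0 at 24 h; it fell by 1.03 ± 0.20 against 0 h and its difference from 12 h was 5.33 ± 0.20 (adjusted p = 5.18e-13). and2 measured 7.77, 7.32 and 7.13 at 0 h, 3.04, 2.82 and 3.58 at 12 h, and 4.55, 5.0 and 4.63 at 24 h. enam, which encodes enamelin, a matrix protein of mineralised tissue, was higher than at 12 h by 4.01 ± 0.31. In these 3 genes the 24 h arrays lay between the 12 h arrays and the 0 h arrays, and at 48 h the means were 13.14 ± 0.15, 12.29 ± 0.11 and 13.21 ± 0.35, above 0 h. ifitm5 had not moved in this way at 24 h, with 2.84 ± 0.54 at 12 h, 2.46 ± 0.31 at 24 h and 11.27 ± 0.04 at 48 h. Of the 26 bone genes 12 were higher than at 12 h and 2 lower.

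**Figure D4:**
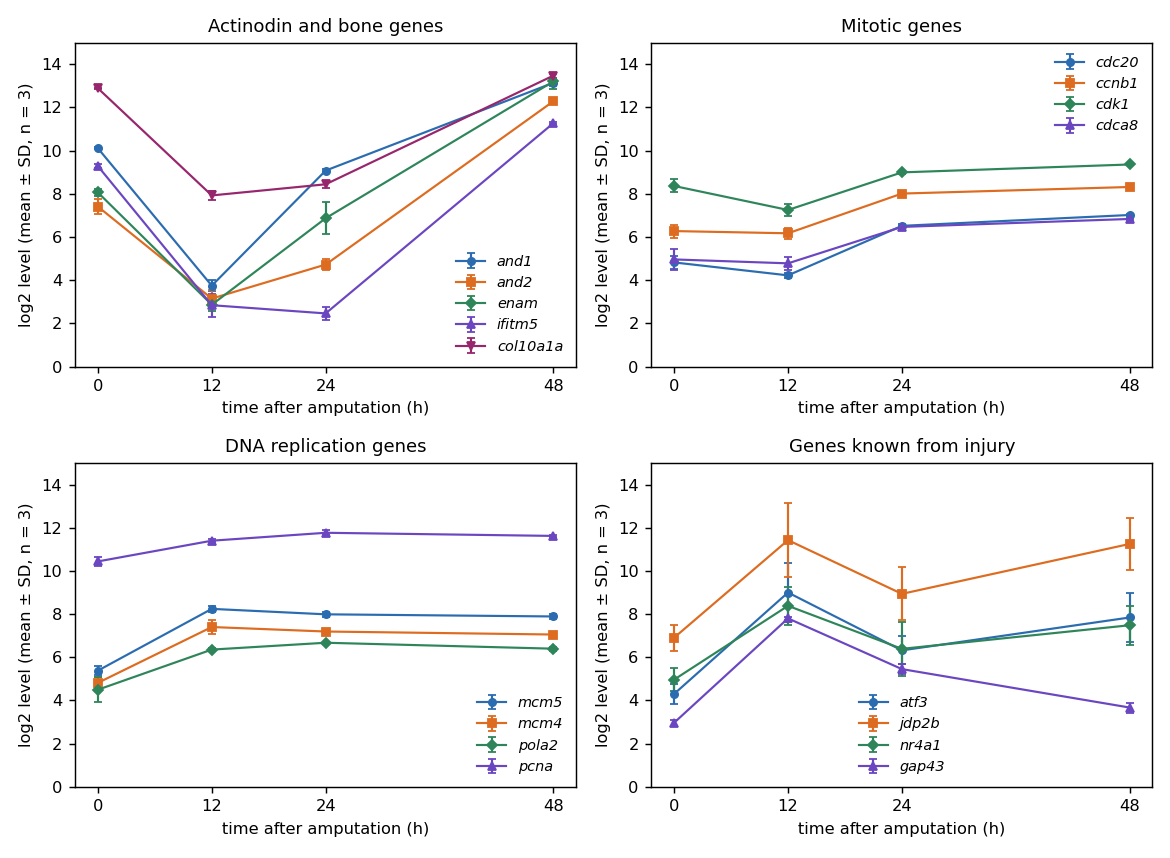
Mean log2 level with SD (n = 3 arrays) in control fins at 0, 12, 24 and 48 h in 4 panels: actinodin and bone genes, mitotic genes, DNA replication genes and genes known from injury responses. Mitotic genes and actinodins rise between 12 and 24 h, replication genes reach most of their difference from 0 h by 12 h, and atf3, jdp2b and gap43 fall from 12 to 24 h.

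The epidermal markers other than keratins passed no test, while keratin and junction genes changed in both directions. epcam (0.15 ± 0.09), cdh1, which encodes E-cadherin, (0.17 ± 0.11) and tp63, the basal epidermal factor, (-0.20 ± 0.13) passed no test. Another probe set of tp63 fell (-0.41). Of 13 keratins 6 rose and 6 fell. krt93 measured 8.46, 9.14 and 8.99 at 0 h and 12.05, 12.28 and 12.23 at 24 h and the simple epithelial krt18a.1, outside that group, 11.74, 11.68 and 11.71 at 0 h and 14.73, 14.64 and 14.69 at 24 h, while krt1-19e measured 12.85, 12.64 and 13.04 at 0 h and 5.67, 5.53 and 5.85 at 24 h and krt99 7.86, 7.58 and 7.74 at 0 h and 4.82, 3.97 and 4.12 at 24 h. krt94 (2.10 ± 0.14), krt8 (1.30 ± 0.08) and krt4 (0.91 ± 0.08) rose from high levels, and krt17 (-1.81 ± 0.12) and krt15 (-0.85 ± 0.10) fell. Of 17 claudin and occludin genes, which seal tight junctions, 1 rose and 11 fell, with a median of -0.64; on arrays set to equal hybridisation controls 1 rose and 8 fell. oclnb fell by 1.27 ± 0.17, cldn1 fell by 1.05 ± 0.13, and the plaque protein tjp2b fell by 1.42 ± 0.13, while the bright epidermal claudin cldnb (13.04 ± 0.21 at 0 h and 13.04 ± 0.13 at 24 h) passed no test. Of 10 desmosome genes 4 rose and 3 fell, or 7 and 2 with equal hybridisation controls, and the plakophilin pkp1b rose by 1.62 ± 0.14. Of 26 genes of ionocytes, mucous cells and other secretory skin cells 12 rose and 9 fell, or 13 and 5 with equal hybridisation controls. The mucin gene muc5.1 measured 7.26, 7.33 and 7.49 at 0 h and 2.57, 2.73 and 2.72 at 24 h and muc5.2 fell by 1.86 ± 0.31; against 12 h, muc5.2 differed by -2.44 ± 0.31 and agr2, which is needed for mucin folding, by -2.32 ± 0.24.

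Cytoskeleton genes included a tubulin group, in which 8 of 10 rose and 1 fell. tubb5 measured 7.38, 7.06 and 7.15 at 0 h and 10.71, 10.69 and 10.64 at 24 h and tuba1b 9.16, 8.93 and 8.81 at 0 h and 12.07, 12.18 and 12.08 at 24 h. Of 8 actins and smooth muscle proteins 3 rose and 3 fell, the latter being acta2 (-3.37 ± 0.13), mylka (-3.11 ± 0.15) and tagln (-1.94 ± 0.23). The gene vim, which encodes vimentin, fell by 2.42 ± 0.26. The bright cytoplasmic actin actb2 (-0.11 ± 0.08) passed no test.

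**Figure D5:**
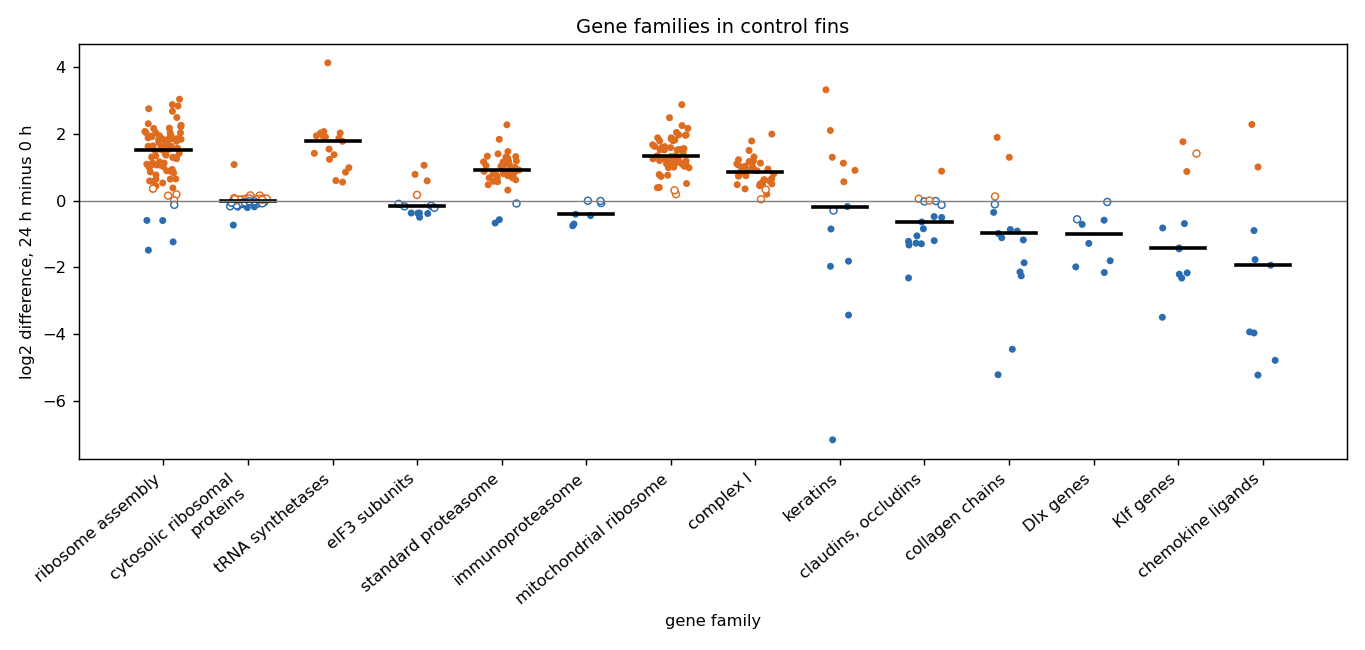
Difference between 24 h and 0 h in control fins (log2) for each tested gene of 14 families, with 1 point per gene; filled points passed the test, open points did not, and the black bar is the family's median. Genes of tRNA synthetases, ribosome assembly, the mitochondrial ribosome and complex I lie almost all above 0. Cytosolic ribosomal proteins and eIF3 subunits lie near 0, and chemokines, claudins, Klf and Dlx genes mostly below.

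Immune genes moved in both directions. Of 28 neutrophil and macrophage genes 10 rose and 13 fell, or 11 and 8 with equal hybridisation controls. Among leukocyte genes that rose, the scavenger receptor marco measured 7.33, 7.03 and 6.78 at 0 h and 8.34, 8.29 and 8.51 at 24 h. The colony-stimulating factor receptor csf1ra rose by 1.05 ± 0.26, spi1b by 0.68 ± 0.17 and slc7a7 by 2.13 ± 0.13. Among those that fell, lyz, which encodes lysozyme, measured 6.05, 7.19 and 7.01 at 0 h and 2.64, 2.76 and 2.62 at 24 h. The oxidase subunit ncf1 fell by 2.02 ± 0.24, and the marker lcp1 fell slightly, from a mean of 8.23 to 7.89. That fall of lcp1 is close in size to the difference in hybridisation controls between the times (-0.29). mpx, the myeloperoxidase gene, was low at both times (3.82 ± 0.43 at 0 h and 3.25 ± 0.13 at 24 h) and passed no test. These picked genes do not separate neutrophils from macrophages. The pan-leukocyte gene ptprc fell by 1.51 ± 0.15, and the T cell receptor constant gene trac measured 7.08, 7.0 and 6.51 at 0 h and 3.95, 3.92 and 3.81 at 24 h. Of 9 chemokine genes 2 rose and 7 fell; cxcl12a measured 8.66, 9.02 and 9.0 at 0 h and 4.68, 5.03 and 5.19 at 24 h, while cxcl12b rose by 2.28 ± 0.18. Of 11 genes of antigen presentation by MHC 1 rose and 8 fell, mhc2daa from 10.41, 9.91 and 10.04 at 0 h to 7.87, 7.78 and 7.69 at 24 h. ptgs2a, the inducible cyclooxygenase, rose by 1.96 ± 0.34.

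Most genes of the pigment cell and vessel lists fell. Those of nerve and axon growth moved both ways, with 12 of 38 higher and 15 lower, or 19 and 12 with equal hybridisation controls. Of 13 pigment and neural crest genes 11 fell, or 7 with equal hybridisation controls, and 1 rose, csf1ra, which macrophages also express; mitfa, the melanocyte factor, measured 4.35 ± 0.29 at 0 h and 3.05 ± 0.11 at 24 h and foxd3 fell by 3.10 ± 0.13. Of 15 genes of the endothelium and vessel wall 2 rose and 9 fell. This list also holds the chemokines cxcl12a, which fell, and cxcl12b, which rose. The endothelial receptor kdrl (7.11 ± 0.10 at 0 h and 7.04 ± 0.07 at 24 h) and fli1 (-0.07 ± 0.15) passed no test, while the mural cell genes rgs5a (-2.42 ± 0.16) and acta2 fell. The myelin gene mbpa measured 7.86, 7.78 and 8.05 at 0 h and 3.47, 3.55 and 3.49 at 24 h, and egr2b, the myelination factor, fell by 2.88 ± 0.12. gap43, a gene of growing axons, measured 2.81, 3.09 and 3.0 at 0 h, 7.83, 7.73 and 7.83 at 12 h, and 5.42, 5.68 and 5.25 at 24 h, so the 24 h arrays lay between those of 0 h and 12 h. The Eph receptors epha2a (3.50 ± 0.16) and epha4a (2.47 ± 0.22) rose, while the repellent signals sema3d (-3.03 ± 0.12) and sema4e (-2.16 ± 0.26) fell.

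Clock genes changed between samples that the labels place 24 h apart, with no time of day given. Of 25 clock genes 9 rose, 13 fell and 3 passed no test. The activators bmal1a (7.12, 7.31 and 7.33 at 0 h and 4.72, 4.41 and 4.41 at 24 h) and bmal1b (-1.98 ± 0.15) fell. Repressor genes moved both ways: bhlhe40 (2.08 ± 0.22) and ciarta (3.08 ± 0.25) rose, and bhlhe41 (-1.92 ± 0.26) fell. Of 8 cryptochrome genes 4 rose and 3 fell, with cry2 at 2.54 ± 0.19 and cry3b at -5.22 ± 0.09. Paralogues parted here as well: nr1d2b measured 5.96, 6.66 and 6.03 at 0 h and 8.91, 8.57 and 8.52 at 24 h and nr1d2a 7.50, 8.25 and 8.71 at 0 h and 4.67, 4.91 and 4.50 at 24 h. The light-induced per2 passed no test (0.39 ± 0.28). Against 12 h, 3 of the 25 were higher and none was lower.

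The means of the same contrast in memory fins share no array with those of the control contrast. Both contrasts come from the fit to all 24 arrays, so their tests share an estimate of the spread. It called 2751 of the 6451 genes higher (42.6%) and 1833 lower (28.4%). With equal hybridisation controls the share of higher calls in memory fins went from 53.8% to 77.5%. All 25 of the largest rises in controls were called higher there and all 25 of the largest falls lower. aldh1a2 differed by 4.0 ± 0.14 in memory fins and inhbaa by 2.61 ± 0.16, beside 4.14 ± 0.14 and 3.43 ± 0.16 in controls. A test of the difference between the arms called 169 genes (2.62%), 116 with a larger value in controls (1.8%) and 53 with a smaller one (0.822%). That split depended on scaling: of 254 probe sets called 66.1% were larger in controls, against 47.6% of 233 with arrays centred on their median and 30.5% of 59 with equal hybridisation controls. Of the 51 replication genes 11 had a larger rise in controls and none a smaller one. The calls of mcm4, pola2, tyms, fen1 and pcna were lost with equal hybridisation controls, and those of pola2, fen1 and pcna also without any of 7, 7 and 6 of the 12 arrays. The helicase gene mcm5 rose by 2.61 ± 0.12 in controls and by 1.19 ± 0.12 in memory fins, where it measured 6.21, 6.39 and 6.55 at 0 h and 7.50, 7.42 and 7.79 at 24 h. The memory arrays of mcm5 at 0 h lay above those of controls at 0 h, and those at 24 h below the 24 h arrays of controls. irg1l, the fish relative of the itaconate-making enzyme of macrophages, had the largest difference between the arms among the genes named, at 4.66 ± 1.14 (adjusted p = 0.0331): it measured 4.25, 6.33 and 4.30 at 0 h and 8.62, 8.99 and 8.10 at 24 h in controls and 2.85, 6.81 and 5.36 at 0 h and 5.63, 3.27 and 2.96 at 24 h in memory fins. The call for irg1l was lost without any of 8 of the 12 arrays and with equal hybridisation controls, whereas that for mcm5 held in every such fit.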

How the data were processed

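RNA of caudal fins was measured on 24 Affymetrix zebrafish arrays, 3 in each of 8 groups. The deposited values are on the log2 scale. Per the submitters' processing notes the authors used Partek and GCRMA, a probe-level method that subtracts background modelled from probe sequence, quantile-normalizes the arrays and summarises each probe set; their versions and parameters are not given in the sources used here. GCRMA compresses differences at low levels and, through its quantile step, removes overall shifts between arrays. The number of arrays limits the precision.

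From these log2 values, limma 3.58.1 in R 4.3.3 was fitted to the 24 arrays with 1 mean for each group and eBayes without a trend, on 10140 probe sets that reached log2 of 4 on 3 arrays; 5362 were left out as low. P-values were adjusted over the 10140 by the Benjamini-Hochberg method and called under 0.05. List members were counted among the genes that passed this filter. Probe sets were named from the platform annotation, and 6451 genes with 1 symbol were tested.

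The groups and gene lists were chosen with earlier results of these data known, and families within lists after their values were seen. The text names genes from a rule that allows 806 genes in all. It allows the 25 largest rises and falls and 10 genes of each further comparison. Any member could be named of the Fgf, Wnt, Bmp, hedgehog and Notch, blastema, injury factor, replication and cyclin lists. The same held for the metalloproteinase, wound matrix, bone, keratin, neutrophil and macrophage, muscle and clock lists, whatever the size of change. Of each other list up to 10 called and 4 uncalled members were allowed. The fit was tested on simulated data. Other filters, moderation, scalings, a replicate block and leaving out each array were tried as alternatives. Between control 0 h and 24 h, arrays of the same replicate number did not deviate together (correlations of 0.025, -0.051 and 0.014 for replicates 1, 2 and 3). Other times were not compared in this way, so whether the numbers pair the arrays is not known. In control fins replicate 1 had the lowest hybridisation controls of its group at each time. In memory fins this held at 12 and 48 h only. Promoter and protein sequences were not analysed here.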

Additional observations from a re-analysis of the deposited data

Results flagged for a closer look

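The 24 h change of 18 named genes differed between control and memory fins by limma's test of that difference, with adjusted p from 0.000467 to 0.0435. In 17 of the 18 the value was larger in controls. These 18 are only the genes named: over all 6451 genes 116 of the 169 called were larger in controls. With equal hybridisation controls 18 of the 59 probe sets called were. The difference, control minus memory on the log2 scale, was 4.66 for irg1l, 2.29 for the transcription factor cremb, 2.08 for the Notch ligand jag1a and 1.89 for cyp26a1, which breaks down retinoic acid. The irg1l change was 3.61 in controls and -1.05 in memory fins, and that of cyp26a1 -0.29 and -2.18. For the fin matrix gene enam it was -1.77, with -1.19 in controls and 0.58 in memory fins. The calls of irg1l, cremb, jag1a and enam were lost without any of 8, 7, 10 and 9 of the 12 arrays. That of cyp26a1 held without each array in turn.

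Among genes of DNA replication, nucleotide supply and methylation upkeep the differences were 1.42 for mcm5, 1.23 for mcm4, 1.12 for pola2, 0.86 for tyms, 0.85 for uhrf1, 0.6 for fen1 and 0.59 for pcna. The growth inhibitor mstnb gave 1.05, and since it fell in both arms it fell less in controls. The SUMO-activating enzyme sae1 gave 1.02, and the mitochondrial elongation factor gfm1 gave 0.78. The chaperones hspa4a, hsp90b1 and hspd1 gave 0.96, 0.73 and 0.66. On arrays set to equal hybridisation controls 14 of the 18 differences no longer passed the test, and 8 of the 18 passed it without each of the 12 arrays in turn. Only cyp26a1, mcm5 and sae1 passed in both of these checks.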

How the results depend on the processing

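For 24 h against 0 h in control fins, 3729 probe sets were higher and 3207 lower. Equal hybridisation controls left 1982 lower, an added 2-fold threshold left 954 higher and 802 lower (1756 in all), and means over all probe sets of a gene, with fewer features tested, left 1843 lower of 4606 called. Without each array in turn 3485 to 3615 were higher and 3009 to 3081 lower. Against 12 h (1140 higher, 901 lower), equal hybridisation controls gave 3481, 151 and 3632 in all, and a fit of the groups compared alone gave 438, 252 and 690. Without each array in turn the counts ran from 804 to 1119 higher, 523 to 933 lower and 1327 to 2011 in all, and leaving out control 24 h replicate 3 or 2 moved the lower count by over 1.5 times, to 523 and 585. For the difference between the arms (168 larger in controls, 86 smaller), centring on the median gave 111 larger, and equal hybridisation controls gave 18, 41 and 59 in all. Without each array in turn these ran from 60 to 214, 24 to 124 and 88 to 338, the total being 122, 88 and 338 without control 24 h replicates 1, 2 and 3, 164 without control 0 h replicate 1, and 108 and 89 without memory 24 h replicates 2 and 3. In memory fins equal hybridisation controls gave 5639 higher and 1636 lower. The cause of these moves was not tested. With the replicate block 3751 were higher and 3237 lower against 0 h, 2153 differed from 12 h and 313 between the arms. No named gene reversed against 0 h in any alternative, and against 12 h eno3 went from -0.35 to 0.0033 with equal hybridisation controls. Low levels, where background takes up most of the signal, limit the size of a difference.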
